A study of Rattus norvegicus with 6 samples.

Results

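To ask how short exposure to a GLP-1 receptor agonist changes chromatin accessibility in beta cells, ATAC-seq of WT INS-1 cells treated with Ex-4 was set against untreated WT INS-1 cells (CON). The comparison rests on 1 library of each condition. It covers every merged peak outside the mitochondrial chromosome that has a value in WT CON or WT Ex-4, which is 144904 of 220487 such peaks. INS-1 cells derive from a rat insulinoma and stand in for beta cells, and this identity was not checked here because no gene annotation of the build of the files was used. WT Ex-4 cells received 10 nM Ex-4 for 1 h, and WT CON cells received no agonist. All cells were washed and put in medium without serum beforehand. The series holds 4 more libraries: WT cells given 10 µM FSK, an activator of adenylate cyclase, for 1 h, and CON, Ex-4 and FSK libraries of Med14 S983A INS-1 cells, in which alanine replaces a serine of the Mediator subunit Med14. The study describes independently made Med14 S983A knock-in lines, and which of them gave these libraries is not stated in the labels or methods.

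Ex-4 is a stable agonist of the GLP-1 receptor, a G protein-coupled receptor of beta cells that raises cAMP. cAMP releases the catalytic subunits of PKA, which phosphorylate CREB bound at cAMP response elements, and this switches on immediate early genes and genes of beta cell function. In ATAC-seq the Tn5 transposase cuts and tags DNA that is not shielded by nucleosomes, so read density over a peak follows how accessible that region is.

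Values are FPKM over merged peaks, taken relative to the reads inside the library's own peaks. A value of 0 marks a peak missing from the library's own peak list and is given as listed at 0. Reads in peaks, recovered from the whole steps between low values, were 151500000 in WT CON and 158900000 in WT Ex-4, and from 134300000 to 251200000 in the other libraries. Whether such a step is a whole read pair or a single mate is not known. WT CON had 131253 called peaks and WT Ex-4 had 132608. Change means the difference of log2(FPKM + 0.5), WT Ex-4 minus WT CON, which makes the change of weak peaks look smaller than it was. Peaks whose 6 values averaged 1 FPKM or more were kept, 123398 of the 144904. Intervals on single values are exact Poisson intervals at 95%, for counting error only. With 1 library a condition there is no replicate error, so no p-value is given and each count describes these libraries.

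Chromatin accessibility was closely alike with and without Ex-4 at most regions. Of the kept peaks, 113053 were called in both libraries and are termed shared. Their median change was -0.021, and 108041 of them (95.6%) differed by less than 1.5-fold. The middle 50 percent of shared peaks lay between -0.14 and 0.099. At the ends of the distribution, peaks that rose outnumbered peaks that fell. At least 2-fold higher with Ex-4 were 574 shared peaks (0.508%), termed raised, and at least 2-fold lower were 182 (0.161%), termed lowered, which is 3.15 raised peaks for each lowered one. At a 1.5-fold rule the counts were 3036 (2.69%) and 1976 (1.75%). At least 3-fold higher were 55 peaks and at least 3-fold lower were 6. Without the filter, which averages all 6 libraries, 600 peaks called in both libraries were at least 2-fold higher and 262 at least 2-fold lower. The counting intervals of the WT CON and WT Ex-4 values did not overlap at any of the 574 raised and 182 lowered peaks. The same values chose these peaks as 2-fold apart, so this is no separate support for the changes.

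**Figure D1:**
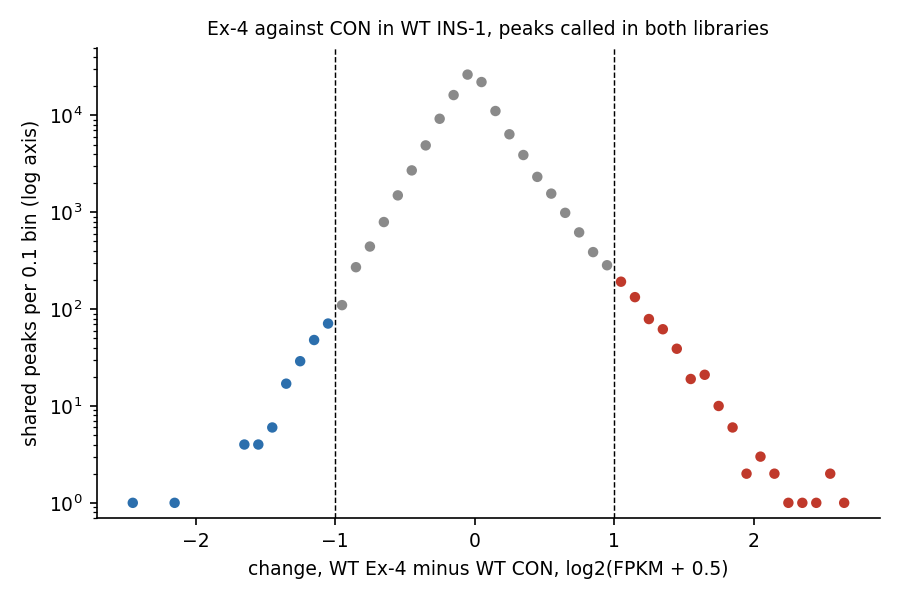
Number of shared peaks in each 0.1 bin (vertical, log axis) by their change with Ex-4 in WT on the log2(FPKM + 0.5) scale (horizontal). Dashed lines mark 2-fold, red points are bins of the 574 raised peaks and blue points bins of the 182 lowered peaks. The right arm reaches 2.63 and the left arm -2.49.

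The raised peaks were weak before treatment. Their median level was 2.64 FPKM in WT CON and 7.08 FPKM in WT Ex-4, against 6.84 and 6.73 FPKM for all shared peaks, and 48 of the 574 had at least 10 FPKM in WT CON. Their median length was 605 bp, against 513 bp for all shared peaks. The lowered peaks had a median of 5.82 FPKM in WT CON and 2.19 FPKM in WT Ex-4, and a median length of 442.5 bp. Both classes were chosen on WT CON, and in Med14 S983A CON, which did not choose them, the medians were 1.63 FPKM for the raised peaks, 1.29 for the lowered and 5.20 for all shared peaks. These medians count peaks not called in Med14 S983A CON as 0. Over peaks called in both Med14 S983A CON and Med14 S983A Ex-4, the Med14 S983A CON medians were 3.145, 2.50 and 7.35 FPKM. In WT FSK, measured against the same WT CON library, the median level of the raised peaks was 15.2 FPKM and that of the lowered peaks 1.38 FPKM, with 6.47 FPKM over all shared peaks.

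The largest rise was at chr1:52707415-52708240 (rn6), where WT CON had 0.632 FPKM (0.50 to 0.788) and WT Ex-4 had 6.52 (6.09 to 6.97). WT FSK had 19.9 FPKM, and Med14 S983A had 2.66 FPKM in CON, 9.66 in Ex-4 and 21.4 in FSK. Both genotypes were thus lowest in CON and highest with FSK. The next largest rise, at chr8:120014959-120015567, went from 0.966 FPKM (0.776 to 1.19) in WT CON to 7.98 (7.43 to 8.56) in WT Ex-4, with 11.7 in WT FSK. In Med14 S983A this peak had 0.747 FPKM in CON, 4.66 in Ex-4 and 7.03 in FSK, the same order of treatments. The strongest of the 10 largest rises was at chr15:50777694-50778558. It had 3.85 FPKM (3.52 to 4.20) in WT CON, 24.6 (23.8 to 25.5) in WT Ex-4 and 37.8 in WT FSK, and 9.06, 26.4 and 34.8 FPKM in Med14 S983A CON, Ex-4 and FSK. Its change with Ex-4 was 2.53 in WT and 1.49 in Med14 S983A, where the CON level was higher.

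Of the 10 largest rises, 5 had no called peak in untreated Med14 S983A cells. At chr14:34697662-34698880, WT CON had 3.34 FPKM, WT Ex-4 17.4 and WT FSK 29.8, whereas in Med14 S983A it was listed at 0 for CON, rising to 2.29 under Ex-4 and 4.93 under FSK. At chr3:63366706-63367665, WT CON had 2.22 FPKM, WT Ex-4 11.6 and WT FSK 21.6, and all 3 Med14 S983A libraries were listed at 0. The peak at chr14:62908044-62908876 was likewise listed at 0 in the 3 mutant libraries, with 0.539 FPKM in WT CON, 4.84 in WT Ex-4 and 15.5 in WT FSK. The 2 last-named regions were thus called in WT alone. The peak at chr20:49866585-49867670 had 0.298 FPKM in WT CON, 3.94 in WT Ex-4 and 13.7 in WT FSK, and in Med14 S983A a value with FSK alone, 0.730 FPKM. The peak at chr1:24751436-24751959 stood higher in Med14 S983A whatever the treatment, with 0.618, 4.29 and 8.37 FPKM in WT CON, Ex-4 and FSK and 6.22, 15.2 and 17 in Med14 S983A. The remaining 2, at chr1:52780507-52781114 (0.631 FPKM in WT CON and 4.55 in WT Ex-4) and chr1:52592136-52592835 (0.453 and 3.42), belong with the largest rise to the chromosome 1 group described further on. Of the 10 peaks, 9 had more FPKM in WT FSK than in WT Ex-4, and 5 were called in both the CON and the Ex-4 library of Med14 S983A, with changes there of 1.22 to 2.28.

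The largest falls were a pair of peaks close together on chromosome 2. At chr2:198687122-198687731, WT CON had 22.0 FPKM (21.0 to 23.0) and WT Ex-4 had 3.49 (3.13 to 3.89), WT FSK was listed at 0, and Med14 S983A had 11.1 in CON and was listed at 0 with Ex-4 and FSK. At chr2:198684736-198685442, WT CON had 16.9 FPKM (16.1 to 17.7), WT Ex-4 3.36 (3.03 to 3.72) and WT FSK 3.80. In Med14 S983A that peak had 3.87 FPKM in CON, 3.67 in Ex-4 and 2.86 in FSK, so its 3 mutant values and the treated WT values all lay near one level, and WT CON stood apart. Past this pair the falls were smaller, from -1.65 to -1.51. The peak at chr3:83015380-83015862 had 4.92 FPKM in WT CON, 1.23 in WT Ex-4 and 4.63 in WT FSK, and 4.25, 4.54 and 5.03 FPKM in Med14 S983A CON, Ex-4 and FSK. Here the WT Ex-4 library was the low one of the 6. The peak at chr9:8619801-8620220 had 15.9 FPKM in WT CON, 5.27 in WT Ex-4 and 1.42 in WT FSK, and in Med14 S983A a value in CON alone, 0.906 FPKM. The peaks at chr17:60263226-60263614 (9.63 FPKM in WT CON and 2.81 in WT Ex-4) and chr7:125853767-125854492 (2.58 and 0.556) were also called in the mutant CON library and not in its Ex-4 library. The other 4, at chr7:24064735-24065237, chr4:66553091-66553522, chr10:4182026-4182320 and chr1:199780425-199780683, went from between 5.45 and 7.81 FPKM in WT CON to between 1.51 and 2.16 in WT Ex-4 and were listed at 0 in both of those Med14 S983A libraries. Of the 10 falls, 2 were thus called in both mutant libraries, with changes there of -0.068 and 0.086.

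**Figure D2:**
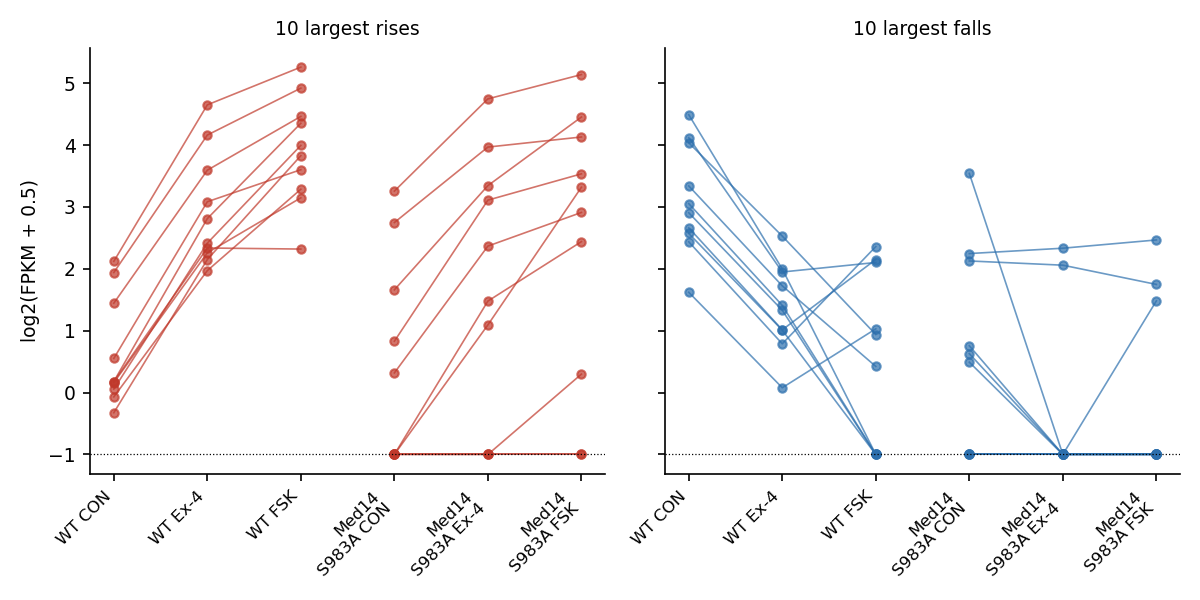
Level of the 10 shared peaks with the largest rise (left, red) and the 10 with the largest fall (right, blue) in WT, as log2(FPKM + 0.5) in each of the 6 libraries, 1 library a point, with lines joining the libraries of a genotype. The dotted line at -1 is a peak listed at 0. The rises run upwards from CON to Ex-4 in both genotypes wherever the mutant had a peak called with Ex-4, whereas of the falls 2 keep a value in both the CON and the Ex-4 library of Med14 S983A.

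Changes differed with the length of the peak. In 4 equal bins of the shared peaks by length, the median change rose from -0.055 in peaks of 106 to 324 bp through -0.033 and -0.018 to -0.0051 in peaks of 767 to 3550 bp. All 4 medians were below 0 and close to it. Longer peaks were also stronger, with a median WT CON level of 4.17 FPKM in the shortest bin and 15.7 FPKM in the longest. Length and level were not separated in these bins. The share raised at least 2-fold was 0.138% in the shortest bin, 0.563% in the second, 0.814% in the third (513 to 767 bp) and 0.517% in the longest. The share lowered was 0.166%, 0.244%, 0.205% and 0.0283%. Raised peaks therefore outnumbered lowered ones in every bin but the shortest, where 39 were raised and 47 lowered, and in the longest bin 146 were raised and 8 lowered. The spread of the change narrowed with length as well. Its robust SD, from the interquartile range, was 0.24 in the shortest bin and 0.10 in the longest, against counting errors of 0.17 and 0.040 for the median peak. These counting errors take each step as an independent read and are too small if a step is a single mate.

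Changes also differed with the level before treatment. A bin on WT CON carries the counting error of that library into the change, so the level in Med14 S983A CON, which the change does not use, served as a second measure. In 4 bins by Med14 S983A CON, the share raised fell from 1.10% of the weakest peaks (up to 1.89 FPKM) through 0.474% and 0.329% to 0.131% of the strongest (over 13.9 FPKM). The share lowered fell from 0.389% through 0.202% and 0.0460% to 0.00708%. The spread of the change narrowed over these bins too. Its robust SD was 0.29 in the weakest and 0.090 in the strongest, against counting errors of 0.15 and 0.037 for the median peak. Whether the shares fell with level beyond this narrowing was not tested. The weakest bin starts at 0, so it takes in peaks not called in Med14 S983A CON as well as peaks measured low there. Its median in WT CON was 3.525 FPKM, against 3.83 FPKM in the second bin. Among the strongest peaks 37 were raised and 2 lowered. In bins by WT CON itself, the share raised fell from 1.22% to 0.0743%. The median change had no single direction with level, as it was 0.032 in the weakest and -0.016 in the strongest bin by WT CON but -0.016 and -0.010 by Med14 S983A CON.

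**Figure D3:**
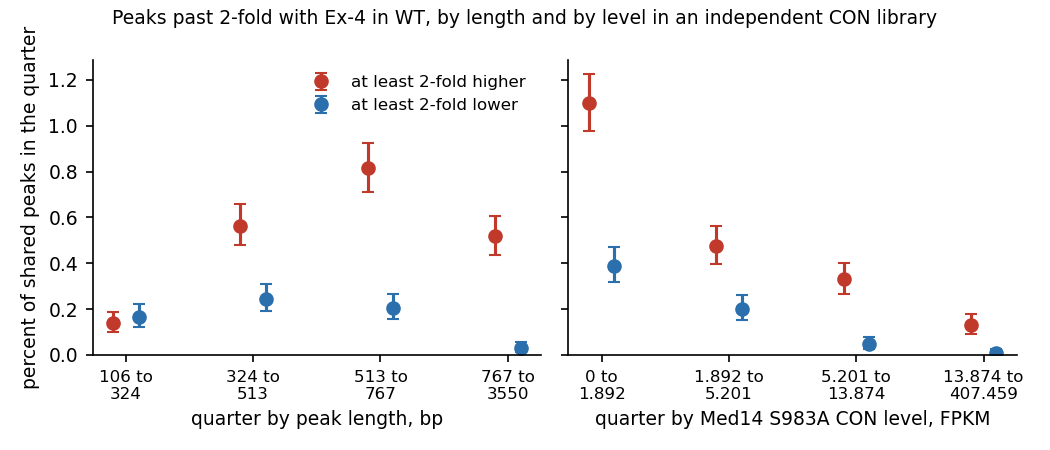
Percent of shared peaks at least 2-fold higher (red) or lower (blue) with Ex-4 in WT, in 4 equal bins by peak length (left) and by FPKM in Med14 S983A CON (right); bars are 95% exact binomial intervals over peaks, which do not stand for replicate error. The raised share peaks at 0.814% in the third length bin and falls from 1.10% to 0.131% with level. The weakest level bin includes peaks listed at 0 in Med14 S983A CON.

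Rises and falls were also counted by the libraries in which a peak was called. Of the shared peaks, 86465 were called in all 6 libraries, and of these 0.448% were raised and 0.0625% lowered. Of the 10275 called in the 3 WT libraries and in no mutant library, 0.691% were raised and 0.457% lowered. Peaks called in every library except Med14 S983A CON numbered 3003. Their median change in WT was 0.11, with 72 raised (2.40%) and 2 lowered (0.0666%). Peaks called in WT CON and WT Ex-4 and nowhere else numbered 972. They had a median length of 167 bp and a median change of -0.20, with 1 raised and 20 lowered (2.06%). Peaks called in WT libraries alone passed the filter on WT values, which include those that give the change. Their shares therefore describe the peaks that passed it.

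Peaks listed at 0 in one library were kept apart from the shared ones, and no fold is given for them. Gained peaks, listed at 0 in WT CON and with a value in WT Ex-4, numbered 6233 (4.24% of the 146906 peaks past the filter). These 146906 include 23508 peaks listed at 0 in both WT CON and WT Ex-4. Lost peaks, with a value in WT CON and listed at 0 in WT Ex-4, numbered 4106 (2.79%). The order of these counts rests on the filter, which averages all 6 libraries. With at least 2 FPKM required in the library where the peak was called instead, 5591 peaks were gained and 5871 lost. A value without a call in the same library was held by 8 of the 6233 gained peaks and 10 of the 4106 lost peaks. Both kinds were short and weak. Gained peaks had a median length of 240 bp and a median of 2.16 FPKM in WT Ex-4, which is 80 reads, and 266 of them reached 10 FPKM. Lost peaks had a median length of 188 bp and a median of 2.61 FPKM in WT CON, which is 77 reads, and 290 of them reached 10 FPKM. Distances to other peaks were short for part of them. Within 1000 bp of a peak with a WT CON value were 29.2% of the gained peaks, and within 1000 bp of a peak with a WT Ex-4 value were 35.2% of the lost peaks.

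The strongest gained and lost peaks were of this short kind. The strongest gained peak, chr12:47791300-47791414, is 114 bp long and was listed at 0 in WT CON, with 33.0 FPKM in WT Ex-4 and 36.1 in WT FSK; the 3 Med14 S983A libraries were listed at 0. It lies 946 bp from the nearest peak with a WT CON value. The next 4 were chr14:43141953-43142063 (29.5 FPKM in WT Ex-4), chr5:143142140-143142249 (29.2), chr12:9502295-9502448 (27.6) and chr12:31395150-31395263 (27.2), which lie between 338 and 895 bp from such a peak. At chr5:143142140-143142249 all 3 Med14 S983A libraries had values, 23.4 FPKM for CON, 21.7 for Ex-4 and 21.2 for FSK, so that WT CON alone was listed at 0. The same held at chr12:9502295-9502448, with 46.5, 44.2 and 50.9 FPKM in Med14 S983A. The strongest lost peak, chr1:240904086-240904217, had 40.1 FPKM in WT CON and was listed at 0 in the other 5 libraries. The other 4 were chr4:157437225-157437339 (30.5 FPKM in WT CON), chr7:12950076-12950348 (29.2), chr7:11291783-11291890 (29.2) and chr1:256927192-256927298 (28.8). All 4 were listed at 0 in the 3 Med14 S983A libraries, and chr4:157437225-157437339 and chr7:12950076-12950348 had 21.9 and 22.7 FPKM in WT FSK.

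The same treatment in Med14 S983A cells shares no library with the WT comparison, so the peaks chosen in WT can be read there. Of the 574 raised peaks, 389 were called in both Med14 S983A CON and Med14 S983A Ex-4. Their median change in the mutant was 0.86, against -0.023 for all 92444 shared peaks called in both, and 381 of 389 (97.9%) lay above 0, against 44.3%. At least 2-fold higher in the mutant were 143 of them (36.8%, 95% exact binomial interval 32.0 to 41.8 over peaks), against 0.605% of all, and at least 1.5-fold higher were 296 (76.1%), against 3.50%. None of the 389 was 2-fold lower in the mutant, where 0.0887% of all were. Of the other raised peaks, 73 were called in Med14 S983A Ex-4 and not in its CON, 2 the other way round and 110 in neither. The median change of the 389 in WT was 1.16, which includes the choice of peaks past 2-fold in that comparison, so the gap between 1.16 and 0.86 is not a measured difference between genotypes.

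The lowered peaks were read in the same way. Of the 182 lowered peaks, 82 were called in both mutant libraries, with a median change there of -0.20. Of these, 63.4% lay below 0, against 55.7% of all shared peaks called in both, and 7 (8.54%, 3.50 to 16.8) were at least 2-fold lower, against 0.0887%. At 1.5-fold, 17 (20.7%) were lower, against 1.21% of all, and 5 (6.10%) were higher, against 3.50%. A further 28 of the 182 were called in Med14 S983A CON and not with Ex-4, 3 the other way round, and 69 in neither. The difference between raised and lowered peaks in this respect was not tested.

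**Figure D4:**
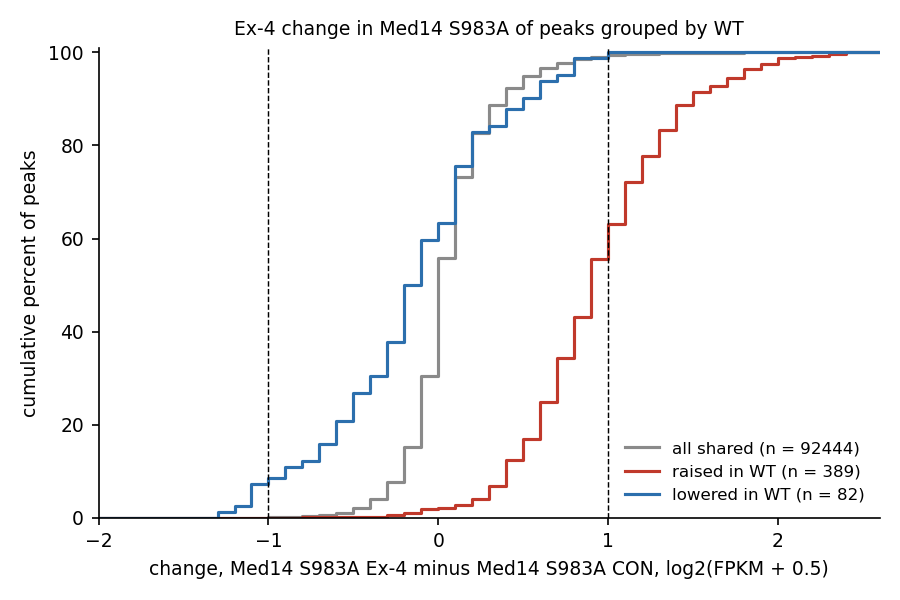
Cumulative percent of peaks (vertical) by their change with Ex-4 in Med14 S983A on the log2(FPKM + 0.5) scale (horizontal), for all shared peaks (grey, 92444), peaks raised in WT (red, 389) and peaks lowered in WT (blue, 82), called in both mutant libraries; dashed lines mark 2-fold. The red curve is shifted to the right, with a median of 0.86, and the blue curve lies to the left of the grey one below 0, with a median of -0.20. Between 0.3 and 0.7 the blue curve lies to the right of the grey one.

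Gained peaks were followed in the mutant as well. Of the 6233, 1521 (24.4%) were called in Med14 S983A Ex-4 and not in Med14 S983A CON, and 348 (5.58%) in CON and not with Ex-4, against 4.48% and 2.12% of all shared peaks. Med14 S983A Ex-4 had 129417 called peaks and 147100000 reads in peaks, against 119021 and 134300000 in Med14 S983A CON. The shared peaks set beside the gained ones were longer, with a median of 513 bp against 240 bp. The filter on the mean of the 6 libraries includes the mutant values read here, so the shares of gained peaks are a description of the peaks that passed it. Called in both were 2722, with a median change of 0.090 and 4.19% at least 2-fold higher. Their values differed with length. In the longest of 4 bins of gained peaks (353 to 2458 bp), the median change in Med14 S983A was 0.27, with 11.1% at least 2-fold and 31.4% at least 1.5-fold higher. In the shortest bin (104 to 165 bp) it was -0.078, with 0.178% and 0.891%. The short gained peaks thus stood below the values over all shared peaks and the long ones above them. Of the 4106 lost peaks, 419 (10.2%) were called in Med14 S983A CON and not with Ex-4, and 583 (14.2%) the other way round. The 2115 called in both had a median change of -0.048, and 0.426% of them were at least 2-fold lower, against 0.0887% of all shared peaks called in both. In their longest bin the median was -0.0074, with 52 peaks at least 1.5-fold higher and 49 at least 1.5-fold lower.

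Along the genome the bulk of peaks shifted little. The medians of the 21 chromosomes lay between -0.028 and -0.0069, and in 555 runs of 200 neighbouring shared peaks the medians lay between -0.13 and 0.064. Raised peaks were found on every chromosome, from 0.257% of shared peaks on chromosome 3 to 0.872% on chromosome 18, where 32 of 3669 were raised. In 230 runs no peak was raised, and the most in one run was 10. The run after that one held 8, and the border between them falls inside the chromosome 1 group described below. Distances between raised peaks were set beside the distance from every shared peak to a raised one. Of the 574, 115 (20.03%) had another raised peak within 100 kb, against 6.04% of all shared peaks, and 12.4% had one within 20 kb, against 1.5%. Without the chromosome 1 group described next, these shares of raised peaks were 17.6% and 9.69%. Of the lowered peaks, 6.04% had another lowered peak within 100 kb, against 2.59% of all shared peaks.

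The densest group of raised peaks, picked out once its values were known, was on chromosome 1 of rn6 from 52582147 to 52817917, a stretch of 235.8 kb. Of its 27 shared peaks 17 were raised, 26 had a change above 0 and the median change was 1.23. The one peak that was lower, chr1:52805735-52806372, had 23.0 FPKM in WT CON and 12.9 in WT Ex-4. The stretch also held 53 gained peaks and 1 lost peak. Of its 184 merged peaks, which include some under the filter, 30 were called in WT CON, 79 in WT Ex-4 and 167 in WT FSK. The gained peaks had between 0.191 and 8.30 FPKM in WT Ex-4, with a median of 3.28. Summed over the 27 shared peaks, reads scaled to the total in the library's peaks (RPM) were 125 in WT CON, 231 in WT Ex-4 and 395 in WT FSK, ratios of 1.85 and 3.17 to CON.

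The strongest peak of the stretch, chr1:52806626-52808149, had 31.0 FPKM in WT CON, 57.8 in WT Ex-4 and 67.3 in WT FSK, and 57.9, 76.7 and 84.5 FPKM in Med14 S983A CON, Ex-4 and FSK. At its right end, chr1:52817081-52817917 had 9.68, 24.3 and 46.5 FPKM in WT CON, Ex-4 and FSK and 7.82, 21.2 and 37.4 in Med14 S983A. Both of these peaks were lowest in CON and highest in FSK in each genotype. The peak that was lower in WT, chr1:52805735-52806372, was lower in Med14 S983A too, with 18.6 FPKM in CON and 12.8 in Ex-4, and the raised peak chr1:52803995-52804313 (7.33 FPKM in WT CON and 17.2 in WT Ex-4) was listed at 0 in all 3 mutant libraries. In Med14 S983A, 43 of the 184 peaks were called in CON, 105 in Ex-4 and 143 in FSK, and the summed RPM over the same 27 peaks were 156, 264 and 399. Of these 27 peaks, 20 were called in both Med14 S983A CON and Ex-4, with a median change of 1.23 and 12 at least 2-fold higher. The raised peaks themselves set the ends of the stretch. In the 1000 kb on each side there were 130 shared peaks, of which 1 was raised, with a median change of 0.040. The genes of the stretch were not analysed here.

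**Figure D5:**
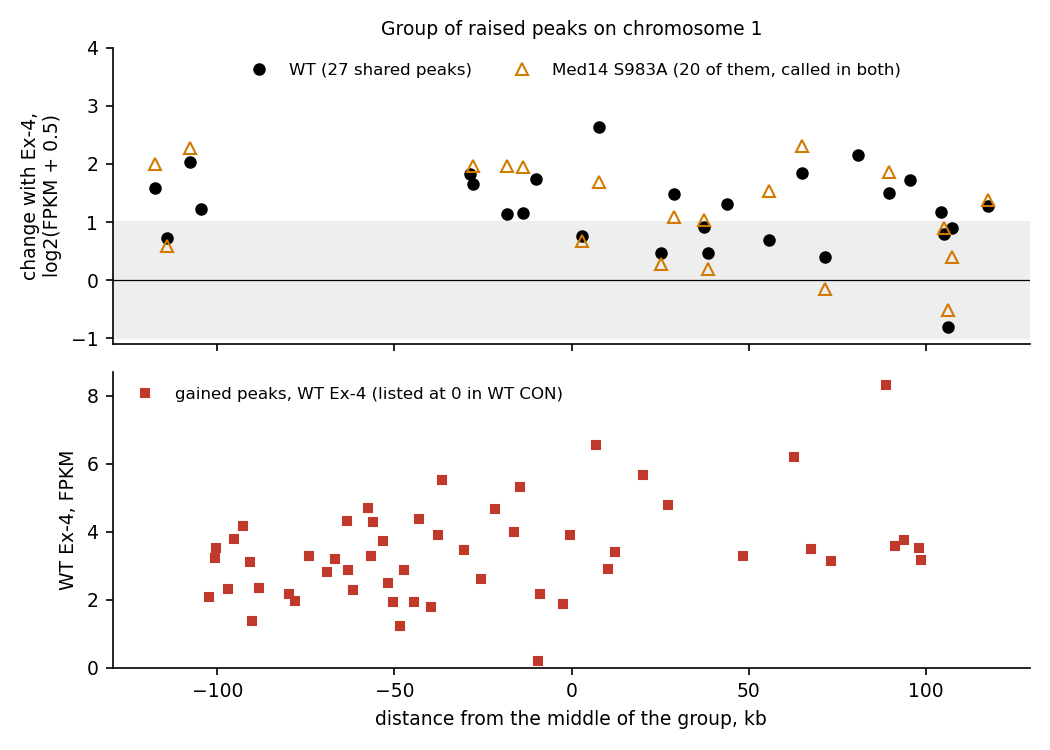
Change with Ex-4 of the shared peaks of the chromosome 1 group by distance from its middle (top, log2(FPKM + 0.5); filled circles, WT; open triangles, Med14 S983A where called in both libraries; the grey band is under 2-fold) and FPKM in WT Ex-4 of its 53 gained peaks (bottom). In WT 26 of 27 peaks lie above 0, with a median of 1.23 over the 27. The triangles are 20 of these peaks, with a median of 1.23 in Med14 S983A, so the medians of the genotypes are over unlike sets.

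Smaller groups, also picked out after the values were seen, held 3 or 4 raised peaks at most 100 kb apart. On chromosome 5 from 157855228 to 157963611, 4 of 15 shared peaks were raised, with summed RPM of 74.9 in WT CON, 90.5 in WT Ex-4 and 121 in WT FSK. On chromosome 1 from 128959989 to 129080068, 4 of 15 were raised beside 23 gained peaks and 0 lost, with 37.7, 46.9 and 91.6. On chromosome 14 from 3279262 to 3291437, 3 of 4 were raised, with 6.13, 21.4 and 108. In WT, Ex-4 above CON largely follows from how the stretches were picked, and FSK stood above Ex-4 in each of these stretches. The order CON, Ex-4, FSK held in Med14 S983A too, where the last had 10.6, 27.9 and 102. On chromosome 17 from 12767296 to 12786187, all 3 shared peaks were raised, with 2.07 RPM in WT CON and 7.42 in WT Ex-4. On chromosome 16 from 83832658 to 83866132, 3 of 8 were raised, with 31.8 and 55.4. None of these groups held a lowered peak, but they hold few shared peaks, and over all shared peaks 0.161% were lowered.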

How the data were processed

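ATAC-seq libraries of INS-1 cells were made by tagmentation of nuclei, 1 library a condition. Per the labels and the study's methods, the authors used Trim Galore for trimming and BWA for alignment to rn6, filtered mitochondrial, poorly mapped and duplicate reads with SAMtools, called peaks with MACS2 in each library and merged them. They deposited FPKM per merged peak from HOMER, beside the peak lists in which each was called. Whether those reads were shifted for the Tn5 cut, and whether replicates were pooled, is not stated in them.

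From these values, peaks were compared as differences of log2(FPKM + 0.5) where the 6 values averaged 1 FPKM or more, with 2-fold as the size rule and no test. All low values checked (4000 a library) lay within 0.15 of whole reads. The recovered reads gave counting error only. Named peaks are the 10 largest rises and 10 largest falls among shared peaks, the 5 gained peaks highest in WT Ex-4 and the 5 lost peaks highest in WT CON; others are said to be picked later. Members, lists and rules were chosen with earlier results of these data known. Alternatives were other pseudocounts, filters, scalings, fold rules, bins and peak sets. The calculation was tested on simulated data. The rn6 sequence and annotation were not used here, so genes, promoters, motifs and beta cell markers were not analysed. Software was matplotlib 3.10.9, scipy 1.17.1, numpy 2.4.6 and pandas 2.3.3 under Python 3.11.15.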

Additional observations from a re-analysis of the deposited data

Results flagged for a closer look

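Some peaks moved in opposite directions with Ex-4 in the 2 genotypes. Among shared peaks called in both Med14 S983A libraries, 16 were at least 1.5-fold higher in WT Ex-4 and at least 1.5-fold lower in Med14 S983A Ex-4, each against the CON library of its genotype, and 28 were lower in WT and higher in Med14 S983A. The 16 are 0.770% of the 2077 peaks raised 1.5-fold in WT, against 1.21% of all shared peaks called in both mutant libraries that were 1.5-fold lower there, and the 28 are 2.43% of the 1153 lowered in WT, against 3.50% of all that were 1.5-fold higher there. Moving the same way at 1.5-fold were 998 of the 2077 and 177 of the 1153. With 2-fold required in each genotype both counts were 0. The difference was not tested, since each condition has 1 library. An example picked after its values were seen, chr15:33751435-33752012, had 9.34 FPKM in WT CON and 3.58 in WT Ex-4, and 3.70 for CON and 6.41 for Ex-4 of Med14 S983A. Another, chrX:72071556-72072271, had 3.33 and 1.41 FPKM in WT and 1.21 and 2.82 in Med14 S983A.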

How the results depend on the processing

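No paired analysis was possible because there is a single library for every condition, and no replicate could be left out. Counts of raised and lowered peaks, 574 and 182, were 937 and 388 at a pseudocount of 0.1, 350 and 92 at 1, 3036 and 1976 at 1.5-fold and 11 and 2 at 4-fold. Lowered peaks were 50 at a mean of at least 3 FPKM and 54 over peaks called in all 6 libraries, where raised peaks were 460 and 387. The raised share of changed peaks, 75.9%, was then 90.2% and 87.8%. It was 60.6% at 1.5-fold and 69.6% without a filter, with 600 raised and 262 lowered. Scaling moved it by less. The median change, -0.021, was -0.022 and -0.020 at pseudocounts of 0.1 and 1, -0.023 without a filter, -0.015 at a mean of at least 3 FPKM, -0.012 under quantile normalization, -0.017 over peaks called in all 6 libraries, and 0 by construction with each library centred. The share of raised peaks also raised in Med14 S983A, 36.8%, was 31.5% at a pseudocount of 1 and 48.1% with 1.5-fold in both genotypes. Without a filter 13529 peaks were gained and 12168 lost, and at a mean of at least 3 FPKM 1687 and 803, while with at least 2 FPKM where called the order turned, to 5591 gained and 5871 lost. The longest minus the shortest length bin, 0.050, was 0.036 over peaks called in all 6 libraries and 0.068 with 10 bins in place of 4. The strongest minus the weakest bin by level, -0.048 by WT CON, reversed to 0.0056 by Med14 S983A CON and 0.0081 by the mean of WT CON and WT Ex-4. Leaving out the chromosome 1 group, an alternative chosen after seeing the data, gave 557 raised and 182 lowered peaks and a share of 35.1% also raised in Med14 S983A. Counting error for the median peak was 0.17 in the shortest length bin, where the robust SD was 0.24, and 0.040 in the longest, where it was 0.10. Variation between libraries is not known.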
